A study of Mus musculus with 12 samples.

Results

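The circadian clock genes described here are 9 of the 38349 genes in the deposited table of mouse lung RNA sequencing: Per2, Per3, Cry2, Ciart, Nfil3, Bhlhe40, Dbp, Bmal1 and Nr1d1. They were taken by symbol, each symbol occurred once, and all 9 passed the filter on low counts that left 22915 genes for testing. The 12 libraries came from lung of wild-type mice in 4 groups of 3: Control, the uninjured lung; ALI, acute lung injury induced by hypoxia and LPS (lipopolysaccharide, a bacterial cell wall component); MSC, injured lung treated with MSC; and tpMSC, injured lung treated with tpMSC. The labels do not spell out MSC or tpMSC, and give neither the dose, the age of the animals nor whether each library is a separate animal. The hour of collection is not given in the sources used here, and a difference in that hour between groups or libraries was not tested.

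The mammalian clock is a feedback loop of transcription that runs in nearly every cell, lung cells included. BMAL1 pairs with CLOCK or NPAS2 and switches on the Per and Cry genes from E-box sequences, and PER and CRY proteins then repress that pair. In a second loop, the nuclear receptors encoded by Nr1d1 and Nr1d2 (REV-ERB alpha and beta) repress Bmal1, so that Bmal1 RNA peaks when Nr1d1, Dbp and Per3 RNA are low. DBP, TEF and HLF activate, and NFIL3 represses, genes that carry D-box sequences.

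Promoter sequence was available for 7 of the 9 genes, as windows from 250 bases before to 50 after the transcription start (RefSeq, GRCm38.p6). Windows were searched on both strands for the E-box CACGTG, the related CACGTT, the D-box TTATGTAA or TTATGCAA, and AGGTCA, the core of the sequence that REV-ERB and ROR receptors recognise. The 250 bases before the start are shown for 4 genes, 3 that fell and 1 that rose in the injured lung, with matches in capitals; all 4 lie on the minus strand and are written 5′ to 3′ as read along the gene, so that a match on the other strand appears as AACGTG or TGACCT.
Ciart, chr3:95882229-95882478: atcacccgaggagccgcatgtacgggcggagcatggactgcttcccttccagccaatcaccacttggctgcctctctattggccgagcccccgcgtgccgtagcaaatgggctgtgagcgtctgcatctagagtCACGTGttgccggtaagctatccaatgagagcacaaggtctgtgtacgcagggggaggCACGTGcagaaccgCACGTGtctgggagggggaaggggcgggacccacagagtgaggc
Per3, chr4:151044666-151044915: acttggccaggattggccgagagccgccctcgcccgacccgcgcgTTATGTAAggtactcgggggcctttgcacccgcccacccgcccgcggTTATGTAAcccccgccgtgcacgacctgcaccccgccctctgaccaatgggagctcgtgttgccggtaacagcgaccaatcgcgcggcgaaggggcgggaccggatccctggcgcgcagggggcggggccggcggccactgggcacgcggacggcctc
Nr1d1, chr11:98775378-98775627: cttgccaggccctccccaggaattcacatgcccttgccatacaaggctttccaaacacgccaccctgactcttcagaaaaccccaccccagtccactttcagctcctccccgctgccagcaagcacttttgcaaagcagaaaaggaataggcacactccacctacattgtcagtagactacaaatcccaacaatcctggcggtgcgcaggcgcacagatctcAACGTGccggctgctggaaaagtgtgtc
Nfil3, chr13:52981040-52981289: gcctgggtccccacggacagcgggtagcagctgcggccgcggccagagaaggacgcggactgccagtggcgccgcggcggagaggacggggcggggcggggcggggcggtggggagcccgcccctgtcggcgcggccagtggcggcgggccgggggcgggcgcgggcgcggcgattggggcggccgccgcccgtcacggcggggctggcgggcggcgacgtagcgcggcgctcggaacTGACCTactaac

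Ciart held 3 copies of CACGTG, beginning 116, 58 and 44 bases before the start, while 7.15% of all 32851 windows held at least 1. Per3 held 2 copies of TTATGTAA, 205 and 158 bases before the start (1.66% of windows held a D-box). Nr1d1 held 1 CACGTT, 28 bases before the start, and Cry2 held 1 at 166 bases (4.68% of windows). Nfil3 held 1 AGGTCA, 12 bases before the start, and the second of 2 windows of Bmal1 held 1, 31 bases after its start. AGGTCA occurred in 16.3% of windows, so a match to it is common. The window of Dbp held none of these sequences.

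Libraries held 53083002 to 70209229 counts, and the lowest count of any of the 9 genes in any library was 170. Markers of lung epithelium, endothelium, fibroblasts and leukocytes were detected in every library. Neutrophil markers (9 genes, summed level) ran from 143 to 237 FPKM (fragments scaled to gene length and library size, as the authors deposited them) in Control, 3789 to 4291 in ALI, 473 to 988 in MSC and 464 to 613 in tpMSC. Endothelial markers (8 genes) ran from 1182 to 1194 FPKM in Control, 587 to 636 in ALI, 731 to 901 in MSC and 906 to 1025 in tpMSC. None of these 17 markers was at 0 in any library. The part of these cell types in the clock results was not tested, and in whole lung fewer cells of a type and less RNA per cell cannot be told apart. Library MSC 1 stood apart from MSC 2 and MSC 3 in several of the 9 genes, and tpMSC 3 from the other tpMSC libraries, so results that rest on them are given with and without them.

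In the injured lung all 9 genes changed. Dbp, Nr1d1, Per3, Cry2, Per2 and Ciart fell, and Nfil3, Bmal1 and Bhlhe40 rose. For each of the 9, no ALI library overlapped a Control library. The test was edgeR's quasi-likelihood test over all 12 libraries, with Benjamini-Hochberg adjustment over all 22915 genes and a call at an adjusted p under 0.05. Of all genes tested, 39.8% were called in this comparison and 55.9% had no overlap between the libraries of both groups, against 9 of 9 here. The median log2 fold change was -0.74 over the 9 genes and -0.02 over all genes tested. The 9 genes were chosen with earlier results of these data known, so these contrasts do not test them as a set.

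**Figure D1:**
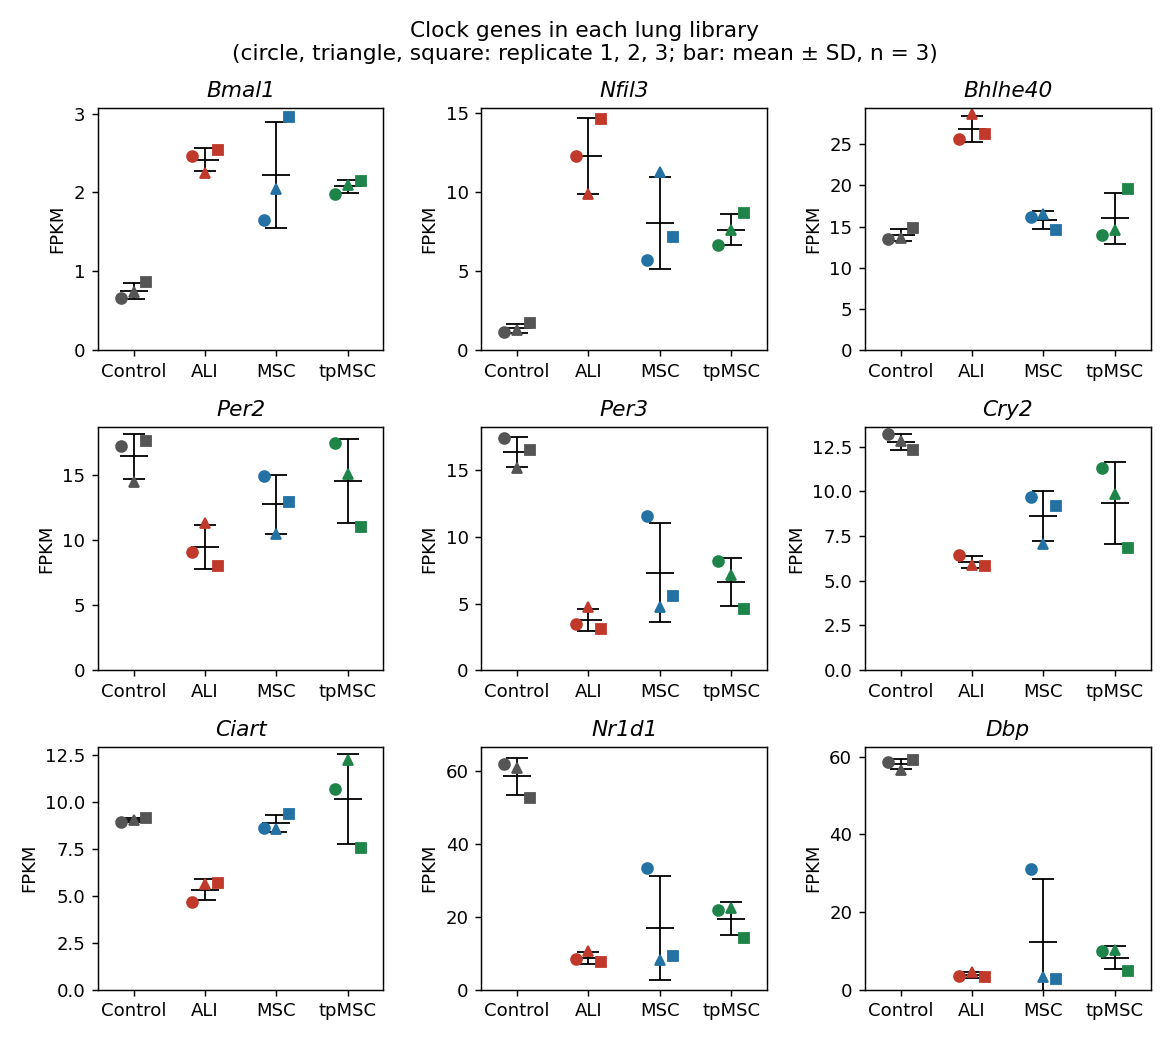
Level of each clock gene in FPKM (linear axes from 0) in the 12 lung libraries by group; points are libraries and bars the mean ± SD (n = 3), which for Dbp in MSC would reach below 0 and is cut there. Dbp reads 56.62 to 59.01 in Control and 3.17 to 4.67 in ALI, with MSC 1 at 30.95 far above MSC 2 and MSC 3.

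The activator of the loop came up from a low level. Bmal1 (ENSMUSG00000055116, named Arntl in older annotations; GRCm38 chromosome 7, 113207465 to 113314126, plus strand) read 0.66, 0.74 and 0.86 FPKM in Control and 2.46, 2.25 and 2.54 in ALI. All ALI libraries were above all Control libraries. The fitted log2 fold change was 1.74 ± 0.19 (SE; adjusted p = 2.82e-05).

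The repressor of Bmal1 moved the other way. Nr1d1 (ENSMUSG00000020889, chromosome 11, 98767932 to 98775333, minus strand) read 62.08, 60.96 and 52.74 FPKM in Control and 8.30, 10.58 and 7.47 in ALI. It fell by 2.68 on the log2 scale (SE 0.45, adjusted p = 0.000634), a 6.39-fold difference. The 3′ end of Nr1d1 overlaps Thra, a thyroid hormone receptor gene on the opposite strand, over 1075 bases, and whether the counting used strand is not given.

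Of the repressors that act on BMAL1 and CLOCK, Per3 fell the most. Per3 (ENSMUSG00000028957, chromosome 4, 151003652 to 151044665, minus strand) read 17.43, 15.22 and 16.57 FPKM in Control and 3.46, 4.72 and 3.11 in ALI, and fell by 2.06 on the log2 scale (SE 0.31, adjusted p = 0.000288). In the annotation used here it lies wholly within the span of Camta1, a gene on the same strand. Cry2 (ENSMUSG00000068742, chromosome 2, 92403646 to 92434043, minus strand), a cryptochrome, read 13.21, 12.80 and 12.32 FPKM in Control and 6.42, 5.86 and 5.83 in ALI. Its fall of 1.02 on the log2 scale (SE 0.16, adjusted p = 0.000348) was smaller than that of Per3.

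Per2 and Ciart had the smallest falls of the 9. Per2 (ENSMUSG00000055866, chromosome 1, 91415982 to 91459324, minus strand) read 17.21, 14.43 and 17.61 FPKM in Control and 9.09, 11.28 and 7.98 in ALI (log2 fold change -0.74 ± 0.18 SE, adjusted p = 0.00644). Ciart, also called Chrono, a repressor of BMAL1 and CLOCK (ENSMUSG00000038550, chromosome 3, 95878503 to 95882251, minus strand), read 8.97, 9.03 and 9.15 FPKM in Control and 4.67, 5.63 and 5.70 in ALI (log2 fold change -0.70 ± 0.15 SE, adjusted p = 0.00291). An antisense gene, C920021L13Rik, spans all of Ciart, so without strand reads of both cannot be told apart.

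Bhlhe40, also called Dec1, encodes a repressor that competes for E-boxes and also acts in macrophages and lymphocytes. Bhlhe40 (ENSMUSG00000030103, chromosome 6, 108660629 to 108666925, plus strand) read 13.52, 13.59 and 14.85 FPKM in Control and 25.68, 28.66 and 26.28 in ALI. It rose by 1.00 on the log2 scale (SE 0.12, adjusted p = 5.8e-05). Cry2, Bhlhe40, Dbp and Bmal1 also overlap a gene on the opposite strand, over 23417, 306, 737 and 2394 bases, while Per2 and Nfil3 overlap none.

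Both output regulators of D-boxes shifted by large folds in opposite directions. Dbp (ENSMUSG00000059824, chromosome 7, 45705088 to 45710203, plus strand), the activator, read 58.63, 56.62 and 59.01 FPKM in Control and 3.39, 4.67 and 3.17 in ALI. It fell by 3.89 on the log2 scale (SE 0.78, adjusted p = 0.00203), a 14.9-fold difference and the largest of the 9. Nfil3, the repressor, which is also needed for the development of natural killer and other innate lymphoid cells (ENSMUSG00000056749, chromosome 13, 52967209 to 52981073, minus strand), read 1.19, 1.32 and 1.73 FPKM in Control and 12.32, 9.86 and 14.66 in ALI. It rose by 3.18 on the log2 scale (SE 0.26, adjusted p = 5.44e-06). Markers of T and natural killer cells (6 genes, summed level) went the other way, from 47.7 to 77.1 FPKM in Control down to 16.2 to 34.4 in ALI. Summed neutrophil markers rose like Nfil3, from 143 to 237 FPKM in Control up to 3789 to 4291 in ALI. The part of either cell type in the rise of Nfil3 was not tested.

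The ratio of Dbp to Bmal1, both in FPKM, sets an output regulator against the activator of the loop in a single number per library. The ratio was 88.8, 76.5 and 68.6 in the Control libraries and 1.38, 2.08 and 1.25 in the ALI libraries. In MSC it was 18.8, 1.61 and 0.970, so MSC 1 lay apart from the others, which were as low as ALI. In tpMSC it was 5.01, 4.81 and 2.21, above every ALI library and below every Control library.

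**Figure D2:**
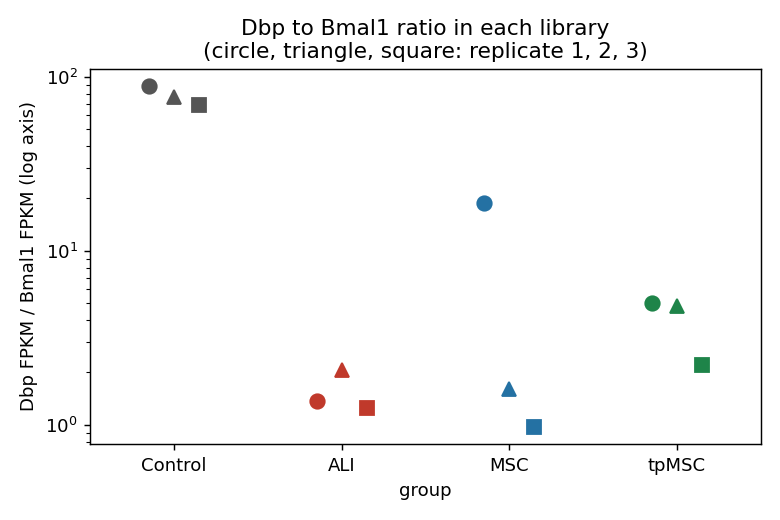
Ratio of Dbp to Bmal1 (FPKM over FPKM, log axis) in each library by group; symbols mark the replicate number. Control libraries lie between 68.6 and 88.8, ALI between 1.25 and 2.08, tpMSC between 2.21 and 5.01, and the MSC libraries at 0.970, 1.61 and 18.8.

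The comparison of MSC with ALI asked how clock transcripts in injured lung differed after MSC. Ciart was higher and Bhlhe40 lower than in ALI, and the other 7 genes did not pass the test. That is 2 of 9 genes, against 10.2% of all genes tested (1 higher against 5.03%, 1 lower against 5.21%). On the log2 CPM scale (counts scaled to library size) 3 of 9 genes had no overlap between libraries, against 27% of all genes. Ciart read 8.65, 8.58 and 9.39 FPKM in MSC, above all ALI libraries (log2 fold change 0.68 ± 0.15 SE, adjusted p = 0.0147); without ALI replicate 1 it was 0.59 (adjusted p = 0.072, with 0.000404 to 0.072 over all alternatives). Bhlhe40 read 16.19, 16.60 and 14.61 FPKM in MSC, below all ALI libraries, and fell by 0.82 on the log2 scale (SE 0.12, adjusted p = 0.00197).

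Dbp and Nr1d1 were divided among the MSC libraries. Dbp read 30.95 FPKM in MSC 1 but 3.28 and 2.87 in MSC 2 and MSC 3, within or below the range of ALI. Nr1d1 read 33.47 in MSC 1 and 8.19 and 9.14 in the others. Per3 read 11.57, 4.76 and 5.58, with MSC 1 again the highest. Against ALI the log2 fold change of Dbp was 1.66 ± 0.72 (SE, adjusted p = 0.181), and without MSC replicate 1 it was -0.32 ± 0.28 (adjusted p = 0.612, with 0.0634 to 0.612 over all alternatives). For Nr1d1 it was 0.89 ± 0.43 (SE, adjusted p = 0.231), and -0.057 ± 0.20 without that library (adjusted p = 0.927, with 0.0718 to 0.927 over all alternatives). For Per3 it was 0.90 ± 0.30 (SE, adjusted p = 0.0829) and 0.42 without that library (adjusted p = 0.35, with 0.0286 to 0.35 over all alternatives).

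The remaining genes differed less among the MSC libraries. Bmal1 read 1.65, 2.04 and 2.96 FPKM, spanning the range of ALI (log2 fold change -0.17 ± 0.18 SE, adjusted p = 0.63). Nfil3 read 5.70, 11.28 and 7.20 FPKM (-0.66 ± 0.24, adjusted p = 0.108), of which only MSC 2 fell within the range of ALI. Cry2 read 9.70, 7.04 and 9.18, all above ALI (0.47 ± 0.16, adjusted p = 0.0841), and Per2 14.94, 10.42 and 12.90 (0.38 ± 0.18, adjusted p = 0.215). Nfil3 and Cry2 were called with DESeq2 (adjusted p = 0.0391 and 0.03) and by edgeR without MSC replicate 2 (adjusted p = 0.0123 and 0.03). Cry2 was also called without tpMSC replicate 3 (adjusted p = 0.0167). Over all alternatives the adjusted p reached 0.337 for Nfil3 and 0.258 for Cry2.

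The question for tpMSC was the same. Per2, Cry2 and Ciart were higher and Bhlhe40 lower than in ALI, which is 4 of 9 genes against 23.1% of all genes tested (3 higher against 11.6%, 1 lower against 11.5%). On the log2 CPM scale 6 of 9 had no overlap with ALI, against 40.5% of all genes. Ciart read 10.70, 12.25 and 7.55 FPKM in tpMSC (log2 fold change 0.90 ± 0.15 SE, adjusted p = 0.00144), and Bhlhe40 13.97, 14.54 and 19.60, lower by a log2 fold change of -0.77 ± 0.12 (SE, adjusted p = 0.000977). Cry2 read 11.34, 9.83 and 6.83 FPKM, above all ALI libraries (0.60 ± 0.16 SE, adjusted p = 0.0171). Per2 read 17.46, 15.09 and 11.02 FPKM (0.59 ± 0.18 SE, adjusted p = 0.0332), and tpMSC 3 overlapped ALI. The calls for Cry2 and Per2 were lost when a tpMSC library other than tpMSC 3 was left out, with adjusted p up to 0.0753 for Cry2 and up to 0.135 for Per2 over the alternatives. They were also lost without ALI replicate 3 (adjusted p = 0.0564 and 0.118), and for Per2 also without ALI replicate 1 (adjusted p = 0.1) and with only tpMSC and ALI in the fit (adjusted p = 0.0535).

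Nr1d1 and Dbp in tpMSC did not pass the test in the fit over all libraries, but passed it without MSC replicate 1. With only tpMSC and ALI in the edgeR fit both also passed (adjusted p = 0.00652 for Nr1d1 and 0.031 for Dbp). Nr1d1 passed without MSC replicate 2 as well (edgeR, adjusted p = 0.0434). Nr1d1 read 21.92, 22.46 and 14.29 FPKM, above all ALI libraries (log2 fold change 1.13 ± 0.43 SE, adjusted p = 0.0821). Dbp read 9.92, 10.11 and 4.74, of which the last was close to the highest ALI library at 4.67 (1.11 ± 0.72 SE, adjusted p = 0.302). On the log2 CPM scale Dbp in tpMSC 3 overlapped ALI. All groups share a single estimate of the spread, and without MSC replicate 1 the SE was 0.18 for Nr1d1 and 0.25 for Dbp. The adjusted p was then 0.00128 for Nr1d1 (0.000142 to 0.201 over the alternatives) and 0.00866 for Dbp (0.000127 to 0.504). Per3 (8.16, 7.12 and 4.61 FPKM; 0.79 ± 0.30 SE) and Nfil3 (6.67, 7.59 and 8.67 FPKM; -0.71 ± 0.24 SE) had adjusted p = 0.081 and 0.0517, and 0.0166 and 0.0315 without that library. Without tpMSC replicate 3 the log2 fold change of Per3 was 1.00 (adjusted p = 0.0356, with 0.00162 to 0.242 over the alternatives). In all, 8 of the 9 genes were called in tpMSC against ALI without MSC replicate 1, against 22.6% of the 23649 genes tested in that fit. Bmal1 was the exception at 1.98, 2.10 and 2.15 FPKM, just below ALI in every library (-0.24 ± 0.18 SE, adjusted p = 0.379).

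**Figure D3:**
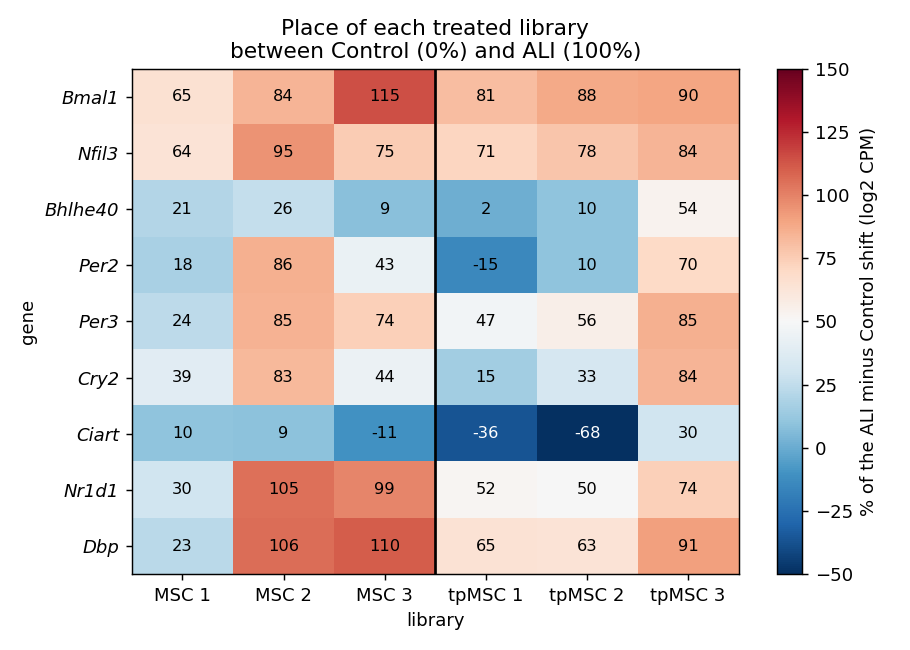
Place of each MSC and tpMSC library between the Control mean (0%) and the ALI mean (100%) for each clock gene, in percent of the log2 CPM difference. For Dbp MSC 1 lies at 23.3% and MSC 2 and MSC 3 at 105.6% and 110.2%, and for every gene tpMSC 3 has the highest value of the tpMSC libraries.

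Placing each library between the Control and ALI means shows the same division gene by gene. On the log2 CPM scale, MSC 1 lay at 23.3% of the ALI shift for Dbp, 30.0% for Nr1d1, 24.2% for Per3 and 17.6% for Per2. MSC 2 lay at 105.6%, 105.0%, 84.9% and 85.6%, and MSC 3 at 110.2%, 98.7%, 73.5% and 43.0%. For Ciart and Bhlhe40 all 3 MSC libraries were near Control, between -10.8% and 9.52% for Ciart and between 8.59% and 26.1% for Bhlhe40.

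On this scale MSC 1 had the lowest value of the MSC libraries for 7 of the 9 genes (77.8%), and tpMSC 3 the highest of the tpMSC libraries for all 9. Over all 9126 genes called in ALI against Control these shares were 55.7% and 62.5%. Over the same genes the libraries as a whole lay at 51.6%, 66.6% and 66.5% of the ALI shift in MSC and at 40.6%, 38.9% and 56.7% in tpMSC. Summed endothelial markers were 901 FPKM in MSC 1 and 776 and 731 in MSC 2 and MSC 3, and summed neutrophil markers 473, 715 and 988 FPKM. For tpMSC 1, tpMSC 2 and tpMSC 3 the endothelial sums were 906.5, 1025 and 905.7 FPKM. The neutrophil sums there were 496.8, 613.2 and 464.1 FPKM, lowest in tpMSC 3. Summed lung epithelium markers were 24850, 18730 and 18400 FPKM in MSC 1, MSC 2 and MSC 3. In tpMSC 1, tpMSC 2 and tpMSC 3 the epithelial sums were 32170, 31730 and 21960 FPKM. Summed alveolar macrophage markers were 194, 603 and 22.9 FPKM in MSC 1, MSC 2 and MSC 3, so MSC 2 and MSC 3 differed the most there. In tpMSC 1, tpMSC 2 and tpMSC 3 they were 442, 377 and 274 FPKM. In tpMSC 3 Inmt, which makes up most of the summed fibroblast markers, read 525.94 FPKM against 982.04 and 1039.15 in the others. Tcf21 (41.93 against 57.39 and 65.87) and Pdgfra (26.47 against 29.26 and 30.44) were also lowest there. Col1a1 at 57.04 and Col1a2 at 47.41 were not low in tpMSC 3. Summed cardiac muscle markers were 54.7 FPKM in tpMSC 3 against 14.6 and 24.8. In the order MSC 1, MSC 2 and MSC 3 the cardiac sums were 31.6, 27.7 and 9.80 FPKM. Summed adipocyte markers were 27.2 FPKM in tpMSC 3 against 4.05 and 3.70 in the other tpMSC libraries. In MSC 1, MSC 2 and MSC 3 they were 20.2, 7.81 and 0.55 FPKM. The part of these differences in the clock values was not tested.

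Between tpMSC and MSC none of the 9 genes was called by edgeR's quasi-likelihood test, where 0.0305% of all genes were. No gene of the 9 had an unadjusted p under 0.05 (lowest 0.167), and DESeq2 called 0 of the 8 to which it gave an adjusted p. On the log2 CPM scale the libraries of all 9 overlapped, where 14.2% of all genes had no overlap. The intervals of the difference varied in width among the genes. For Bhlhe40 the log2 difference was 0.048 (95% interval -0.21 to 0.31) and for Cry2 0.13 (-0.21 to 0.47). For Dbp it was -0.55 (-2.09 to 0.99) and for Nr1d1 0.24 (-0.69 to 1.17). Without MSC replicate 1, Nr1d1 was higher in tpMSC (log2 fold change 1.19, adjusted p = 0.0393, with 0.00362 to 0.988 over the alternatives), and Dbp was at 1.44 (adjusted p = 0.0612, with 0.00169 to 0.958).

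**Figure D4:**
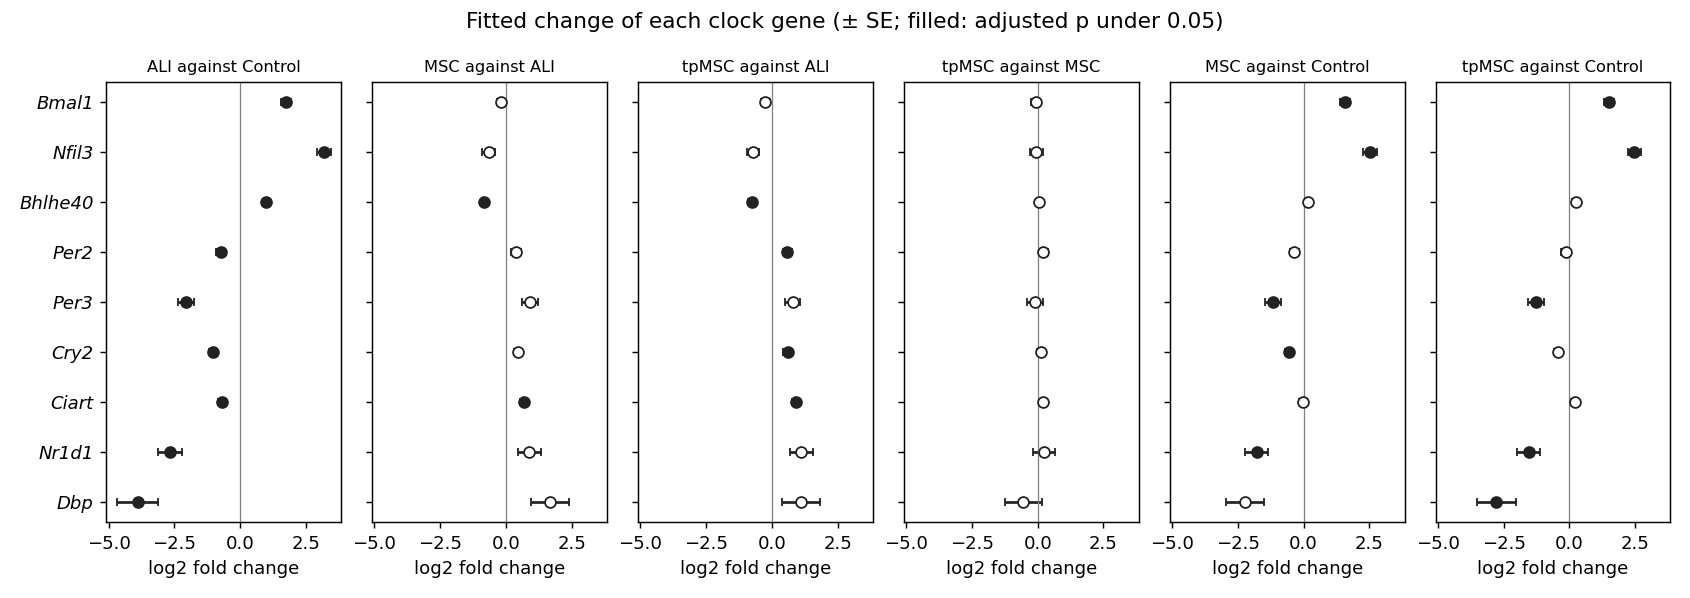
Fitted log2 fold change of each clock gene with its SE in 6 comparisons; filled points have an adjusted p under 0.05. All 9 are filled in ALI against Control, 2 in MSC against ALI, 4 in tpMSC against ALI and none in tpMSC against MSC.

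Set against uninjured lung, both treated groups still differed in part of the loop. In MSC 5 of 9 genes were called (18.7% of all genes tested), with Nfil3 and Bmal1 higher (10.7%) and Nr1d1, Per3 and Cry2 lower (8%). In tpMSC 5 of 9 were called (15.9% of all genes tested), with Nfil3 and Bmal1 higher (9.1%) and Dbp, Nr1d1 and Per3 lower (6.79%). On the log2 CPM scale 7 of 9 genes in MSC and 6 of 9 in tpMSC had no overlap with Control, against 38.6% and 39.3% of all genes. The Control libraries enter both comparisons, as the ALI libraries do in the comparisons with ALI.

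Bmal1 and Nfil3 were called higher than Control in both groups. Bmal1 was higher by a log2 fold change of 1.57 ± 0.19 (SE) in MSC and 1.50 ± 0.19 in tpMSC, with adjusted p = 0.000402 and 0.000829. Nfil3 was higher by 2.52 ± 0.26 and 2.47 ± 0.26, with adjusted p = 0.000174 and 0.000337. For both genes every treated library was above every Control library, and both calls held under each alternative run.

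Nr1d1 was lower than Control by a log2 fold change of -1.79 ± 0.44 (SE) in MSC and -1.55 ± 0.43 in tpMSC, with adjusted p = 0.0155 and 0.0324. Per3 was at -1.16 ± 0.30 and -1.27 ± 0.30, with adjusted p = 0.0203 and 0.0162. Dbp was at -2.23 ± 0.73 in MSC (adjusted p = 0.0524) and -2.78 ± 0.74 in tpMSC (adjusted p = 0.027). Without MSC replicate 1 the MSC value of Dbp was -4.22 (adjusted p = 3.53e-05, with 6.53e-07 to 0.128 over the alternatives). The calls for Per3, Cry2, Nr1d1 and Dbp against Control were each lost under some alternative, with the highest adjusted p at 0.0699 for Per3 in MSC, 0.103 for Cry2 in MSC, 0.0557 for Nr1d1 in MSC, 0.0587 for Per3 in tpMSC, 0.11 for Nr1d1 in tpMSC and 0.0939 for Dbp in tpMSC. In MSC the call for Per3 was lost without Control replicate 1 or 3 or MSC replicate 2 or 3, that for Cry2 without any 1 of the Control libraries, without MSC replicate 2 or with no filter on low counts, and that for Nr1d1 with only MSC and Control in the fit. In tpMSC Per3 lost it without Control replicate 1 or tpMSC replicate 3, and Dbp and Nr1d1 without any 1 of the Control or tpMSC libraries, Nr1d1 also with no filter.

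Ciart, Bhlhe40 and Per2 were not called against Control in either group. The log2 difference from Control was -0.017 ± 0.15 (SE) in MSC and 0.20 ± 0.15 in tpMSC for Ciart, 0.19 ± 0.12 and 0.23 ± 0.12 for Bhlhe40, and -0.35 ± 0.18 and -0.14 ± 0.18 for Per2. Cry2 in tpMSC was at -0.42 ± 0.16 (adjusted p = 0.09), with every tpMSC library below Control.

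Other genes of the clock were counted from a list of 18 loop genes and 9 output genes, all of which passed the filter. In ALI 8 of the 27 rose and 12 fell, against 20.2% and 19.6% of all genes tested. Among partners and relatives of the activator, Npas2 rose from 0.173 ± 0.0924 to 0.883 ± 0.0709 FPKM (SD, n = 3; log2 fold change 2.39 ± 0.36 SE, adjusted p = 0.000298), and Clock rose from 5.08 ± 0.204 to 6.04 ± 0.135 FPKM (adjusted p = 0.0229). Bmal2, a BMAL1 relative, was not called (adjusted p = 0.715).

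Most relatives of the members that fell also fell. Nr1d2 went from 45.83 ± 2.52 to 15.33 ± 1.60 FPKM (SD, n = 3; adjusted p = 0.000353), Per1 from 21.58 ± 1.84 to 10.60 ± 2.35 (adjusted p = 0.000594), Tef from 56.27 ± 2.43 to 15.77 ± 2.52 (adjusted p = 0.000167) and Hlf from 5.88 ± 0.218 to 0.940 ± 0.211 (adjusted p = 0.00022). Bhlhe41, the paralog of Bhlhe40, fell from 4.24 ± 0.245 to 1.81 ± 0.0404 FPKM (adjusted p = 1.83e-05) while Bhlhe40 rose. Cry1, the paralog of Cry2, rose from 5.25 ± 0.950 to 10.07 ± 0.304 FPKM (adjusted p = 0.00014) while Cry2 fell. Rora, a receptor that activates Bmal1, fell (log2 fold change -0.60 ± 0.12 SE, adjusted p = 0.00195).

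Among kinases and ubiquitin ligase parts that set the life of PER and CRY proteins, changes were small where called. Csnk1d and Fbxl21 were not called (adjusted p = 0.448 and 0.673), and Csnk1e and Btrc fell by 0.26 and 0.44 on the log2 scale (adjusted p = 0.0322 and 0.00425). Among output genes Wee1, a cell cycle kinase, Por, the electron donor of cytochrome P450 enzymes, Alas1, the first enzyme of haem synthesis, and Tsc22d3 fell. Fkbp5, Nampt, Lonrf3 and Usp2 rose, with Fkbp5 from 1.46 ± 0.132 to 6.79 ± 0.474 FPKM (SD, n = 3; adjusted p = 5.9e-05). Tsc22d3 and Fkbp5 are both also glucocorticoid targets, and they moved in opposite directions.

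**Figure D5:**
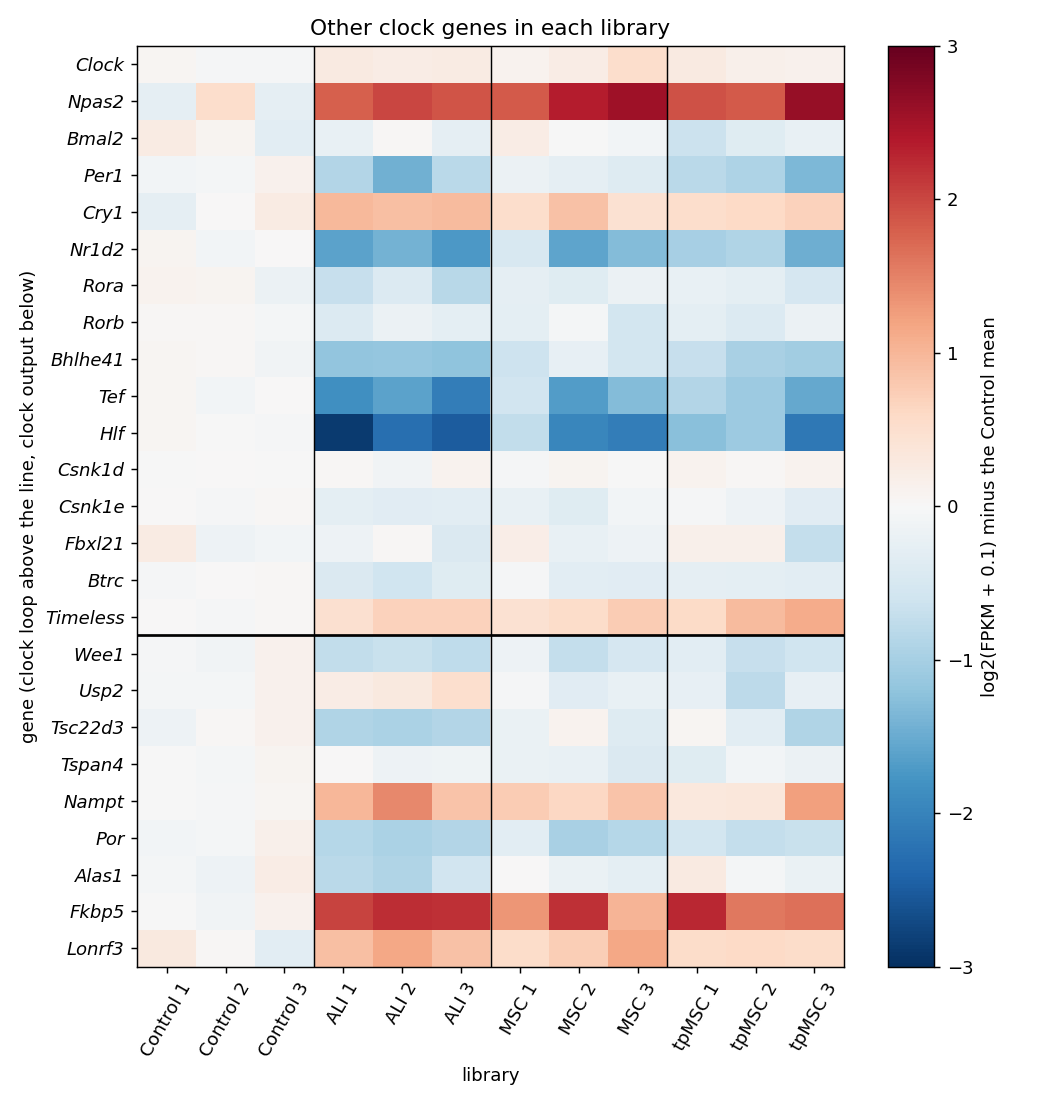
Level of other clock genes of the list in each library as log2(FPKM + 0.1) minus the mean of the Control libraries, loop genes above the line and output genes below. Hlf, Tef and Nr1d2 are lower in ALI than in Control in every library, and for these genes MSC 1 lies nearer to Control than MSC 2 and MSC 3.

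In the treated groups fewer of these 27 genes were called. Against ALI, MSC had 4 higher (Per1, Bhlhe41, Tsc22d3 and Alas1) and 1 lower (Usp2), against 5.03% and 5.21% of all genes tested. Without MSC replicate 1 the count was 1, and without each ALI library it was 2 or 3. tpMSC had 2 higher (Hlf and Alas1) and 1 lower (Usp2), against 11.6% and 11.5%, and without MSC replicate 1, MSC replicate 2 or tpMSC replicate 3 the count was 6. Against Control, 7 were higher and 6 lower in MSC (10.7% and 8% of all genes tested), and 5 higher and 7 lower in tpMSC (9.1% and 6.79%). Between tpMSC and MSC edgeR called 0 of the 27, with 4 at an unadjusted p under 0.05, while DESeq2 called Per1 and Bhlhe41, both lower in tpMSC.

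The division of the MSC libraries seen for Dbp was also seen for its relatives and for Nr1d2. Hlf read 3.46 FPKM in MSC 1 and 1.43 and 1.33 in MSC 2 and MSC 3, which put these libraries at 29.4%, 77.7% and 81.5% of the ALI shift. Tef read 37.93, 17.59 and 22.74 FPKM, and Nr1d2 32.60, 15.18 and 18.65. Npas2, in contrast, lay at 95.2% of the ALI shift in MSC 1 and at or above 97.0% in each of the other treated libraries. Per1 did not divide this way: it read 18.90, 17.90 and 16.56 FPKM in MSC and 12.25, 11.31 and 8.39 in tpMSC. The difference of Per1 between tpMSC and MSC, a log2 fold change of -0.72 ± 0.16 (SE), was not called (adjusted p = 0.13).

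The search for genes closest to a member covered 12685 named genes with a mean of at least 1 FPKM. The 9 members were left out of it, so closeness between members was not ranked. Closeness was the root mean square difference in log2 CPM over the 12 libraries, each gene centred on its own mean. Closest to Dbp were Esm1, an endothelial secreted proteoglycan, at 0.69, Gkn3 at 0.72 and Hpgd, the enzyme that inactivates prostaglandins, at 0.73; the SD of Dbp itself was 1.77. Hpgd read 315.54, 385.18 and 373.13 FPKM in Control, 42.16, 59.27 and 39.14 in ALI 175.03, 86.99 and 69.37 in MSC, and 138.76, 116.77 and 75.95 in tpMSC. Closest to Bmal1 (SD 0.76) were Sdf2l1 and Fam110d, both at 0.19, and Tjp3, a tight junction protein, at 0.20. Closest to Nfil3 (SD 1.29) were Tnfrsf23 at 0.25, Vcan, the matrix proteoglycan versican, at 0.28 and Cp, ceruloplasmin, at 0.28. Among genes outside the 9, the closest match to Dbp was thus looser than that to Bmal1 and Nfil3 on the log2 scale.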

How the data were processed

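RNA sequencing of mouse lung was analysed from 12 libraries in 4 groups of 3, grouped by sample title. Build GRCm38 stands in the submitters' processing notes beside HISAT2 2.0.4, cutadapt 1.9, edgeR, DESeq2 and StringTie 1.3.4d, with no role for any. How reads were counted, with what strand setting and on which annotation release was not given in the sources used here. Raw read counts and FPKM were deposited by the authors for every gene and library, per the file headers. Positions in that table differ from GRCm38 for all 9 genes, so positions are those of GENCODE M21, matched by Ensembl ID.

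Low counts were removed by filterByExpr, and after TMM scaling edgeR 4.0.16 (R 4.3.3) fitted the 12 libraries together, 1 coefficient for each of the 4 groups. An SE is the size of a log2 fold change divided by the square root of F. The code was tested on simulated data. Alternatives were DESeq2 1.42.0, limma 3.58.1 on log2(FPKM + 1) and log2(FPKM + 0.1), other scaling, no filter, only the 2 groups compared, a replicate block and each library left out. Percent places and likeness used log2 CPM with a prior count of 2. The named genes are the 9 genes, other clock genes from the list, and the 3 genes outside the 9 nearest to each of Dbp, Bmal1 and Nfil3. Members and lists were chosen with earlier results of these data known. Since no label ties each replicate to its own animal, the p-values rest on a spread among samples that may be technical. Replicates of a group differed by more than counting noise (chi-square per degree of freedom at least 20.6). Over 22915 genes the median log2 shift lay between -0.02 and 0.02 in every comparison. Values of 2 listed clock genes are not reported here, though the counts include them.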

Additional observations from a re-analysis of the deposited data

How the results depend on the processing

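In ALI against Control all 9 genes kept their direction and call under each of the alternatives that gave a value; DESeq2 gave no adjusted p for Dbp, so it counted 8. The treated comparisons depended more on single libraries. With 1 library left out, the number of the 9 genes called ran from 1 to 5 in MSC against ALI, from 2 to 8 in tpMSC against ALI, from 0 to 1 in tpMSC against MSC, from 3 to 6 in MSC against Control and from 2 to 5 in tpMSC against Control. For the 27 other clock genes it ran from 1 to 7 in MSC against ALI, from 2 to 6 in tpMSC against ALI and was 0 in tpMSC against MSC. DESeq2 called 4 of the 9 genes in MSC against ALI, and of the other clock genes 6 in tpMSC against ALI and 2 in tpMSC against MSC. Over all genes it called 3599, 6321 and 670 in these comparisons. A fit of only the 2 groups compared called 7 of the 9 genes and 7 of the others in tpMSC against ALI. That fit called 5039 of all genes. Without a filter on low counts 3 of the others were called in MSC against ALI, and 1715 of all genes. Leaving out MSC replicate 1 and tpMSC replicate 3 together was chosen after seeing the data. In tpMSC against ALI it gave 8 of the 9 genes, 7 of the others and 5817 of all genes. In tpMSC against MSC it gave 2 and 1, with 644 of all genes. The cause of these shifts was not tested.

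No value called in the fit over all libraries turned its sign. Values not called there that did so are given next, as log2 fold changes. Of these only Dbp in tpMSC against MSC, without MSC replicate 1 and tpMSC replicate 3, was called after the turn (edgeR, adjusted p = 0.00169). Without MSC replicate 1 and tpMSC replicate 3, Dbp was at -0.32, Bmal1 at 0.0139 and Nr1d1 at -0.0575 in MSC against ALI; Per3 was at 0.58, Bhlhe40 at -0.12 and Dbp at 1.72 in tpMSC against MSC; Ciart was at 0.0096 in MSC against Control and Per2 at 0.0201 in tpMSC against Control. The same omission put Cry2 at 0.395, Nfil3 at -0.36 and Nr1d1 at 1.37 in tpMSC against MSC, with no turn of sign. There limma put Dbp at 0.13 with a pseudocount of 1 and at 0.22 with 0.1. With 1 library left out, MSC against ALI ran from -0.32 to 2.13 for Dbp, -0.44 to 0.014 for Bmal1 and -0.0574 to 1.22 for Nr1d1. In tpMSC against MSC it ran from -0.34 to 0.37 for Per3, -0.0174 to 0.31 for Cry2, -0.26 to 0.27 for Nfil3, -0.13 to 0.15 for Bhlhe40, -1.01 to 1.44 for Dbp, -0.25 to 0.20 for Bmal1 and -0.085 to 1.19 for Nr1d1. Ciart ran from -0.0664 to 0.0095 in MSC against Control, and Per2 from -0.28 to 0.0202 in tpMSC against Control.

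No pairing of the libraries by replicate number was detected. Deviations from the group means correlated between -0.11 and 0.10 in the 18 same-numbered pairs, which cannot exclude a small shared effect. A library's best correlation was with its own number in 4 of 12 cases. With the replicate block, Nfil3 in tpMSC against ALI (-0.72, adjusted p = 0.0402) and Dbp in MSC against Control (-2.76, adjusted p = 0.026) were called, and no other call of the 9 genes changed. Over all genes, tpMSC against MSC gave 7 calls, 4 with DESeq2's size factors, 0 with the block, no filter or only these groups, 644 without MSC replicate 1 and tpMSC replicate 3, 670 with DESeq2, 13 with limma at a pseudocount of 0.1 and 0 to 386 with 1 library left out. In MSC against ALI it was 2347, 3599 with DESeq2, 1221 with only these groups and 1084 to 2930 with 1 library left out. The latter range was 3399 to 5800 in tpMSC against ALI (5299), 2465 to 4751 in MSC against Control (4284) and 1830 to 4247 in tpMSC against Control (3643).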
